A study of Mus musculus with 9 samples.

Results

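GABA-A receptors are the chloride channels through which GABA inhibits neurons of the adult brain, and 7 of their subunit genes were examined in the mouse hippocampus: the alpha subunit genes Gabra2, Gabra3, Gabra4 and Gabra5, the beta subunit genes Gabrb1 and Gabrb2, and the delta subunit gene Gabrd. They were taken by gene name from the 54532 genes listed, and all 7 were found. RNA sequencing gave 9 samples in 3 groups of 3. The control (Con) group ate a standard diet, and the high-methionine diet (HMD) group was fed excess methionine, the precursor of homocysteine, for 8 weeks. The Bet+HMD group ate the same diet for 8 weeks and was then given 2.5% (w/v) betaine, which donates methyl groups, to drink for 2 weeks. The labels do not say whether the methionine diet went on during those 2 weeks. The comparisons ask how the diet, and betaine after the diet, bear on hippocampal gene expression.

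All samples are labelled as male C57BL/6 mice aged 6 to 8 weeks at purchase, although the strain entries of the Bet+HMD samples carry a running number and the study's methods name female mice. In all 9 samples Xist, the RNA of the inactive X chromosome, lay between 0 and 0.0449 FPKM, a fragment count divided by gene length and library size, and the Y-linked gene Ddx3y lay between 12.7 and 21.2 FPKM. This bears on Gabra3, which is X-linked. An earlier table held Con and HMD, and a later one added Bet+HMD to them. Each library had 16031464 to 18566712 reads assigned to genes over both tables, and each of the 7 subunits had between 293 and 6278 reads in every library, so none was near the limit of detection. The Bet+HMD libraries stood apart from the others. Their replicates differed from each other by a chi-square of 3.10 to 4.47 per degree of freedom, against 12.8 to 46.4 for replicates of Con and of HMD. Their FPKM summed to 249135 to 258514, against 288439 to 307899 for the other libraries of the same table. The library size used in FPKM was inferred from the values themselves. In Bet+HMD it was 1.042 to 1.049 times the reads assigned, against 0.953 to 1.026 times in those other libraries. A higher ratio gives a lower FPKM from the same reads. The Bet+HMD libraries came in with the later table as one set, so the set and the betaine treatment cannot be told apart. The 2 weeks of betaine came after the 8 weeks of diet. Any difference in age or time on study therefore cannot be told apart from betaine either.

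GABA-A receptors are pentamers, usually of alpha, beta and gamma subunits, and the alpha subunit largely sets where a receptor sits and which drugs act on it. Receptors with the alpha5 subunit are abundant in the hippocampus and lie mostly outside synapses, where they carry a steady (tonic) inhibition that tempers learning. In dentate gyrus granule cells the delta subunit pairs with alpha4 in place of a gamma subunit and forms tonic receptors that respond to low GABA and to neurosteroids. Receptors with alpha2 sit at synapses, among them those on the axon initial segment of pyramidal cells, and alpha3 is more common in neurons outside the hippocampus.

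Several of the genes lie in clusters. On GRCm38, Gabra2 (chr5:70957597-71095849, minus strand), Gabra4 (chr5:71569749-71658308, minus) and Gabrb1 (chr5:71658113-72149037, plus) follow Gabrg1 on chromosome 5. Gabra5 (chr7:57407672-57510059, minus) lies beside Gabrg3 on chromosome 7. Gabrb2 lies at chr11:42419757-42629028 (plus), Gabrd at chr4:155384980-155398112 (minus) and Gabra3 at chrX:72432681-72656848 (minus). Gabra4 and Gabrb1 overlap head to head by 196 bases, of which 46 are exonic in both (0.756% of the exon bases of Gabra4 and 0.332% of those of Gabrb1). Gabra5 overlaps the antisense gene Gm9962 over 2270 bases, and that gene had 5 to 44 reads in a library.

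The sequence just upstream of a start annotated in RefSeq was read for 4 of these genes from the RefSeq promoter table (GRCm38.p6), which matched 6 of the 7 subunits but not Gabrd. The 3 alpha subunit genes that were lower in Bet+HMD than in HMD are shown beside Gabrb2, which was not. Each is written 5′ to 3′ on the strand of the gene and ends at the base before the start, except that of Gabra4, which leaves out the bases nearest its start because they are annotated as an exon of Gabrb1. They are Gabra2 (chr5:71095850-71096099, minus, 250 bases), Gabra4 (chr5:71658364-71658558, minus, 195 bases), Gabra5 (chr7:57510060-57510309, minus, 250 bases) and Gabrb2 (chr11:42420190-42420439, plus, 250 bases, the first of its 3 listed starts). The Gabrb2 window lies within the span of the gene given above, which begins at base 42419757. It is thus upstream of a RefSeq start but not of the whole gene. Capitals mark every match, on either strand, to the motifs named in the next paragraph.
Gabra2: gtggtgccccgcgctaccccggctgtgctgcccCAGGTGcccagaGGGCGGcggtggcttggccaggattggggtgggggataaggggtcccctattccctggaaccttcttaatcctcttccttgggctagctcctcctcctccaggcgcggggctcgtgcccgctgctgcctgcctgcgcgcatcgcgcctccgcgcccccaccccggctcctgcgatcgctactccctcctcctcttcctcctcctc
Gabra4: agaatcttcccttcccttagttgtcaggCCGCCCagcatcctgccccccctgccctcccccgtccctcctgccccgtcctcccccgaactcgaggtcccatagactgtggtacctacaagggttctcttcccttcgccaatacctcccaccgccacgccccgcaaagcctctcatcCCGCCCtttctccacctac
Gabra5: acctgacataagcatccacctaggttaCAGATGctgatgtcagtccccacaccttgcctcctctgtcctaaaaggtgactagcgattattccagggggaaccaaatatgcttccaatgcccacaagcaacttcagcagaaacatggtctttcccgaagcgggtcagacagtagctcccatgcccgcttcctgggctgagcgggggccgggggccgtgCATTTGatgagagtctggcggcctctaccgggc
Gabrb2: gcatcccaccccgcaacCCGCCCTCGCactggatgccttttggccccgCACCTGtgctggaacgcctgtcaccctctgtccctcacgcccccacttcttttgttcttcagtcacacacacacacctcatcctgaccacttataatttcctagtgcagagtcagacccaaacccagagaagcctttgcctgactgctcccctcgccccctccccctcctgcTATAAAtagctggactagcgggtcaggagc

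The letters searched were the Sp1 box GGGCGG, the TATA box TATAAA, the cAMP response element TGACGTCA and its short core TGACG, which lies inside it, the E-box CANNTG and the Egr site GCGNGGGCG. Gabra2 had an Sp1 box beginning 205 bases and an E-box beginning 217 bases before its start. Gabra4 had 2 Sp1 boxes, at 222 and 74 bases. Gabra5 had no Sp1 box and had E-boxes at 223 and 33 bases. Gabrb2 had a TATA box at 30 bases, an E-box at 202 bases, and an Sp1 box that overlapped an Egr site at 233 and 232 bases. Of 32851 RefSeq promoter windows of 250 bases, 32.7% held the Sp1 box, 66.2% the E-box, 12.4% the TATA box and 4.7% the Egr site. The short core and the full cAMP response element, which none of the 4 windows held, were in 17.8% and 1.55% of all windows. No motif searched was held by all 3 of the alpha subunit genes shown. GC content was 70% for Gabra2, 61.2% for the full window of Gabra4, 56.4% for Gabra5 and 58.8% for Gabrb2, against a median of 52.4% over all windows.

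In Con, Gabra5 was the most abundant of the 7 subunits per unit of gene length, at 87.8 ± 5.35 FPKM (mean ± SD, n = 3, later table), followed by Gabra2 at 37.6 ± 9.29 FPKM. Gabra4 (23.9 ± 4.47), Gabra3 (23.6 ± 4.76), Gabrb2 (22.6 ± 1.00) and Gabrb1 (21.8 ± 3.36 FPKM) did not differ from each other beyond their spread, and Gabrd was lowest at 6.96 ± 1.02 FPKM. In HMD, Gabra4 (29.9 ± 2.82 FPKM) came next after Gabra5. Gabra2 (22.9 ± 2.38) was then close to Gabra3 (22.9 ± 1.44), Gabrb2 (22.9 ± 3.45) and Gabrb1 (23.0 ± 5.85 FPKM). In Bet+HMD Gabra5 was still highest and Gabrd still lowest, at 46.8 ± 1.99 and 6.25 ± 0.444 FPKM. Between these 2 the order differed from both other groups: Gabra3 (23.5 ± 0.222), Gabrb1 (22.7 ± 1.30) and Gabrb2 (22.1 ± 1.36 FPKM) stood above Gabra4 (20.04 ± 0.658) and Gabra2 (15.2 ± 0.995 FPKM). The panels of FPKM by sample show the 9 values of each subunit.

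**Figure D1:**
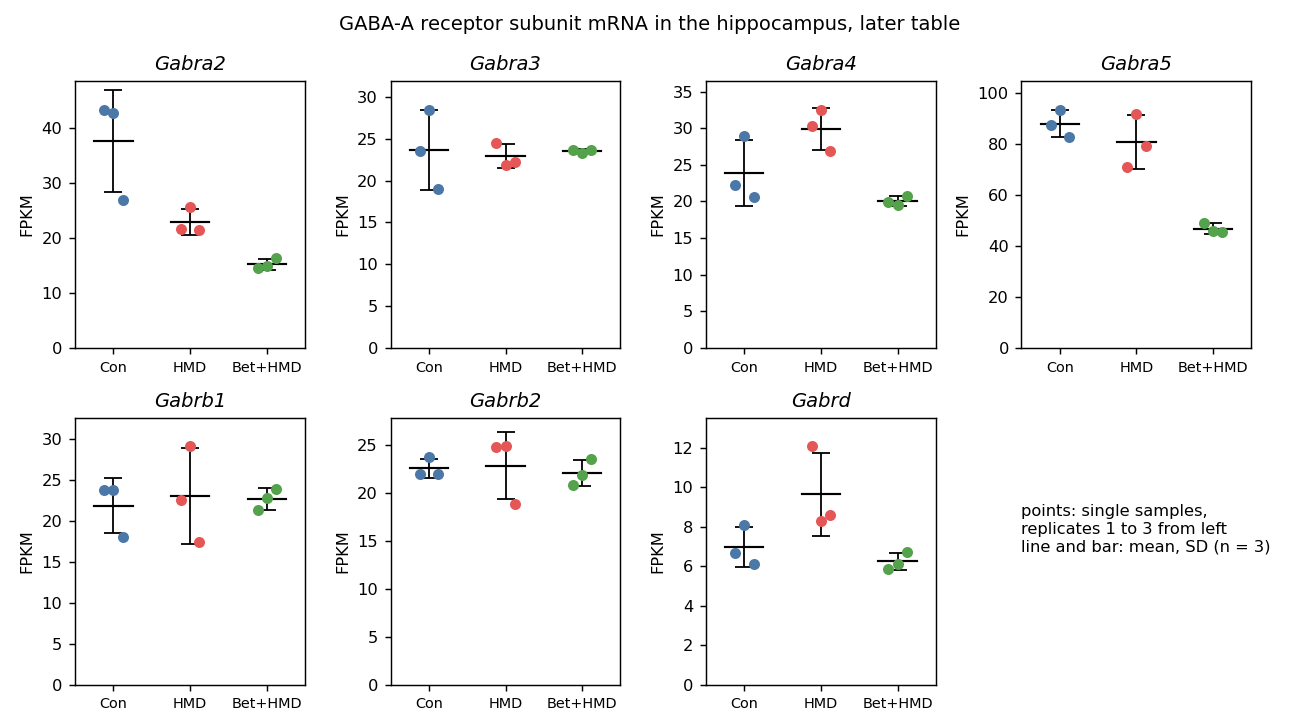
FPKM (linear axis from 0) of the 7 subunit genes in the later table; points are the 3 samples of Con, HMD and Bet+HMD, and the line and bar are the mean and SD. The Bet+HMD points of Gabra2 and Gabra5 lie below all points of the other groups, those of Gabra4 and Gabrd lie below all HMD points, and those of Gabra3, Gabrb1 and Gabrb2 lie among the others.

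Compared with HMD, Gabra5, Gabra4, Gabra2 and Gabrd were lower in Bet+HMD, whereas Gabra3, Gabrb1 and Gabrb2 did not pass the test. That is 4 of 7 lower and 0 higher at an adjusted P under 0.05, with a median log2 fold change of -0.54 over the 7 subunits. Over all 13672 genes tested, 48.3% passed in either direction and 25.5% were lower, and the median was -0.03, so calls were common in this comparison. The same 4 subunits were those whose groups did not overlap, as was the case for 60.1% of all genes. Fold changes are given on the scale of log2(FPKM + 1), and P values are those of limma with Benjamini-Hochberg adjustment across every gene tested. Compared with Con, 2 of 7 were lower (Gabra2 and Gabra5) and 0 higher, with a median of -0.13 against -0.04 over 13643 genes, of which 39.7% passed, 20.4% lower and 19.4% higher. These were also the 2 whose groups did not overlap, against 55.1% of all genes. Both comparisons share the Bet+HMD samples. In bulk tissue, fewer cells of a type and less RNA per cell cannot be told apart.

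Gabra5, which encodes the alpha subunit of tonic receptors in pyramidal cells, measured 87.5, 93.3 and 82.6 FPKM in the Con samples and 71.1, 91.8 and 79.1 FPKM in the HMD samples. In Bet+HMD it measured 49.1, 45.9 and 45.4 FPKM. All Bet+HMD samples lay below all others, and Con and HMD overlapped. Gabra5 was 0.58 times as abundant in Bet+HMD as in HMD (log2 fold change -0.77, SE 0.10, 95% interval -1.003 to -0.53, adjusted P = 0.000965). Compared with Con it was 0.533 times as abundant (-0.89, SE 0.09, interval -1.10 to -0.69, adjusted P = 0.000613). The summed FPKM of 6 markers of CA3, a pyramidal cell field, was also lowest in Bet+HMD, at 54.7 to 59.0 against 83.0 to 117 in HMD and 92.2 to 103 in Con. For 6 markers of CA1 the sum was 131 to 133 in Bet+HMD, 132 to 164 in HMD and 154 to 193 in Con. The part of these markers in the fall of Gabra5 was not tested.

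Gabra2, which encodes the alpha subunit of many synaptic receptors, measured 43.3, 42.6 and 26.9 FPKM in Con. It measured 21.6, 25.6 and 21.4 FPKM in HMD and 14.5, 14.9 and 16.4 FPKM in Bet+HMD. The 3 groups did not overlap, and the third Con sample lay close to the HMD samples. In Bet+HMD Gabra2 was 0.666 times as abundant as in HMD (log2 fold change -0.55, SE 0.09, adjusted P = 0.00274) and 0.405 times as abundant as in Con (-1.22, SE 0.18, interval -1.66 to -0.78, adjusted P = 0.0029). The latter was the largest change of any of the 7 subunits in any of the comparisons.

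Gabra4 and Gabrd, which encode the alpha and the delta subunit of tonic receptors in granule cells, both had their highest mean in HMD. HMD against Con passed the test for neither gene. It shares the HMD samples with Bet+HMD against HMD, so the differences from HMD are not separate results. Gabra4 measured 22.2, 29.0 and 20.6 FPKM in Con, 30.2, 32.5 and 26.9 FPKM in HMD, and 19.9, 19.5 and 20.8 FPKM in Bet+HMD. Gabrd measured 6.69, 8.09 and 6.10 FPKM in Con, 12.1, 8.28 and 8.61 FPKM in HMD, and 5.87, 6.14 and 6.73 FPKM in Bet+HMD. For both genes Bet+HMD lay below HMD without overlap and overlapped Con. Gabra4 was lower in Bet+HMD than in HMD by a log2 fold change of -0.55 (SE 0.08, interval -0.75 to -0.35, adjusted P = 0.0019) and Gabrd by -0.54 (SE 0.14, interval -0.87 to -0.22, adjusted P = 0.0156). Compared with Con the values were -0.23 for Gabra4 (SE 0.13, interval -0.54 to 0.08, adjusted P = 0.206) and -0.13 for Gabrd (SE 0.11, interval -0.40 to 0.14, adjusted P = 0.395). Without Con replicate 2, the highest Con sample for both, these values were -0.089 and -0.031. Without Con replicate 3, the lowest for both, they were -0.33 (adjusted P = 0.066) and -0.21 (adjusted P = 0.148). With TPM the value of Gabra4 was -0.018 and that of Gabrd 0.070.

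The call of Gabrd against HMD was lost without Bet+HMD replicate 1 (-0.50, adjusted P = 0.0572) or replicate 2 (-0.53, adjusted P = 0.0526), where the fold stayed close to -0.54. It was also lost when FPKM was rescaled to TPM, which makes every library sum to the same total (-0.40, adjusted P = 0.0658), and when samples were centred on neuron markers (-0.32, adjusted P = 0.0996). Without Bet+HMD replicate 1 or 2, calls over all genes were fewer too, at 4847 of 13545 and 4782 of 13556, beside 6607 of 13672 as reported. From the median of all genes Gabrd stood at -0.56 with TPM and -0.52 with neuron centring, beside -0.52 as reported. HMD replicate 1 had the highest Gabrd and also the most RNA of thalamus, a region next to the hippocampus. The summed FPKM of 10 thalamus markers was 132.6 in that sample and 51.4 and 63.5 in the other HMD samples. It was 26.5 to 37.4 in Con and 40.5 to 42.2 in Bet+HMD, and no marker was at 0 in all samples of a group. The sum of 5 medial habenula markers was 24.4 in HMD replicate 1 and 5.34 to 7.13 in the other 8 samples. Without that sample Gabrd was lower in Bet+HMD than in HMD by -0.38 (adjusted P = 0.0166) and Gabra4 by -0.54 (adjusted P = 0.00884). The part of the thalamus markers in the remaining difference was not tested.

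Gabra3, Gabrb1 and Gabrb2 showed no difference that passed the test in either comparison. Gabra3 measured 23.5, 28.5 and 18.9 FPKM in Con, 24.5, 21.9 and 22.3 FPKM in HMD, and 23.7, 23.3 and 23.6 FPKM in Bet+HMD. Its Bet+HMD samples lay inside the range of both other groups, and its log2 fold change was 0.04 against HMD (interval -0.12 to 0.21) and 0.01 against Con (interval -0.33 to 0.35). Against HMD, Gabra3 was called higher after rescaling to TPM (0.24, adjusted P = 0.0332), quantile normalization (0.24, adjusted P = 0.0352) or centring on neuron markers (0.26, adjusted P = 0.0208). TPM and neuron centring moved other genes as well: the median of all genes was 0.16 and 0.20, and Gabra3 stood 0.08 and 0.07 above it. With quantile normalization the median was -0.05, and Gabra3 stood 0.28 above it, beside 0.07 as reported.

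Gabrb1, a beta subunit gene also expressed in astrocytes, measured 23.8, 23.8 and 17.96 FPKM in Con, 22.6, 29.1 and 17.4 FPKM in HMD, and 21.3, 22.8 and 23.8 FPKM in Bet+HMD. Gabrb2, the beta subunit gene most widespread in the brain, measured 22.0, 23.7 and 22.0 FPKM in Con. It measured 24.9, 24.9 and 18.9 FPKM in HMD and 20.8, 21.9 and 23.5 FPKM in Bet+HMD. All groups overlapped for both genes. The log2 fold change against HMD was 0.005 for Gabrb1 (interval -0.39 to 0.40) and -0.04 for Gabrb2 (interval -0.32 to 0.23), and against Con it was 0.06 (interval -0.24 to 0.36) and -0.03 (interval -0.23 to 0.17). The widths of these intervals leave room for changes in either direction, so the genes are not shown to have stayed level.

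**Figure D2:**
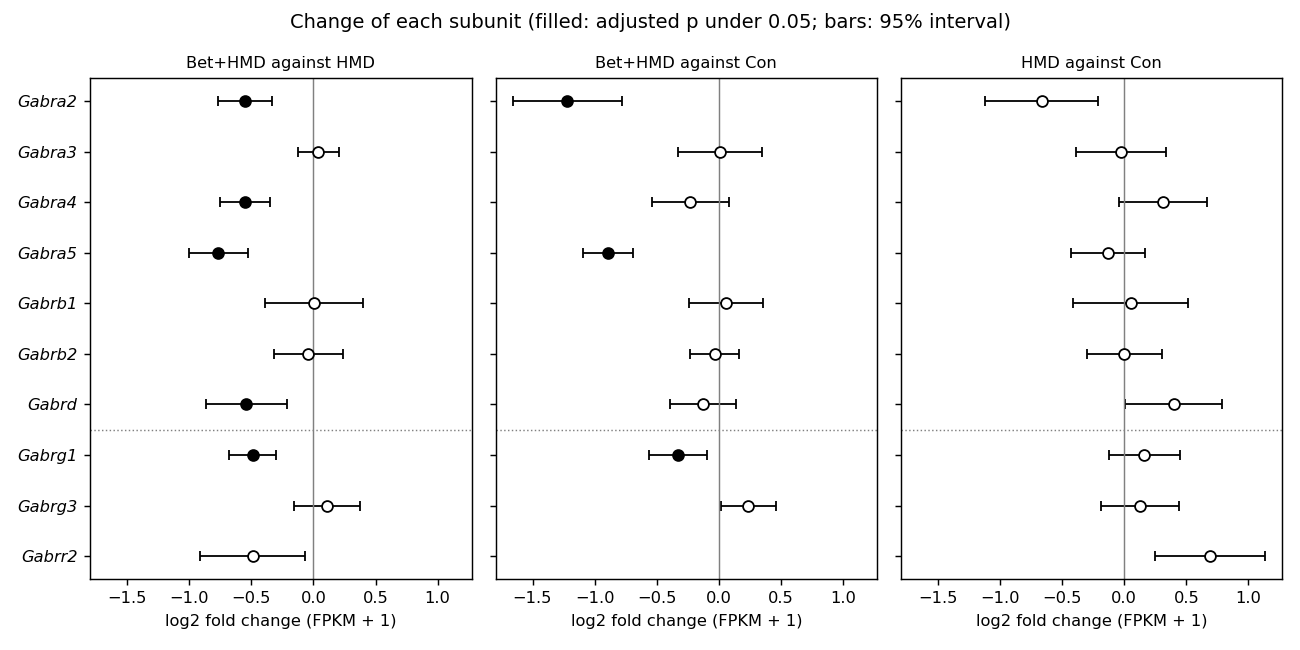
Log2 fold change with its 95% interval for the 7 subunits (above the dotted line) and 3 other subunits tested (below it) in the 3 comparisons; filled points have an adjusted P under 0.05. Against HMD the filled points are Gabra2, Gabra4, Gabra5, Gabrd and Gabrg1, against Con they are Gabra2, Gabra5 and Gabrg1, and HMD against Con has none.

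For HMD against Con the earlier table was used, where 0 of 7 subunits passed at an adjusted P under 0.05. Nor did any of the 12989 genes tested with limma (0%), and 4.56% of them had an unadjusted P under 0.05. Gabra2 measured 42.7, 41.8 and 26.2 FPKM in Con and 21.4, 24.98 and 21.0 FPKM in HMD, which did not overlap. Its log2 fold change was -0.66 (SE 0.20, interval -1.12 to -0.21, unadjusted P = 0.0103, adjusted P = 0.934). Gabrd measured 6.67, 8.09 and 5.93 FPKM in Con and 11.8, 8.11 and 8.45 FPKM in HMD, again without overlap, the second Con sample lying just below the second HMD sample. Its log2 fold change was 0.40 (SE 0.17, interval 0.01 to 0.79, unadjusted P = 0.0473, adjusted P = 0.98). Groups did not overlap for 9.37% of all genes, and Gabra2 and Gabrd were the 2 of 7 subunits with an unadjusted P under 0.05.

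Gabra4 had a log2 fold change of 0.31 in HMD against Con (interval -0.04 to 0.67, unadjusted P = 0.0749), with 21.8, 28.5 and 20.01 FPKM in Con and 29.9, 31.3 and 26.3 FPKM in HMD. The second Con sample lay among the HMD samples. Gabra5 (-0.13), Gabra3 (-0.03), Gabrb1 (0.05) and Gabrb2 (0.001) all had intervals that span 0. The thalamus markers differed between these groups too, with sums of 26.03 to 36.8 FPKM in Con and 49.7 to 130.9 FPKM in HMD, and all 9 of those tested were higher in HMD, though none passed the test. Without HMD replicate 1 the values were 0.24 for Gabrd, 0.30 for Gabra4 and -0.63 for Gabra2, and the adjusted P was 1.00 for each.

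The share of each of the 4 alpha subunit genes in their summed FPKM does not depend on how a library was scaled. Gabra5 made up 51.1 ± 3.83% of that sum in Con, 51.5 ± 2.86% in HMD and 44.3 ± 1.52% (SD, n = 3) in Bet+HMD. The share of Gabra2 was 21.5 ± 3.28% in Con, 14.6 ± 0.309% in HMD and 14.4 ± 0.949% in Bet+HMD. The share of Gabra4 was 13.8 ± 1.21% in Con, 19.1 ± 1.27% in HMD and 18.98 ± 0.507% in Bet+HMD. Thus the share of Gabra2 was lower and that of Gabra4 higher in every HMD sample than in every Con sample, whereas the shares of Gabra5 overlapped between Con and HMD and were lower in every Bet+HMD sample.

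The share of Gabra3 was higher in Bet+HMD, at 22.3 ± 0.198% against 13.6 ± 1.03% in Con and 14.7 ± 1.96% in HMD. Its mean FPKM was 23.6 in Con, 22.9 in HMD and 23.5 in Bet+HMD, and did not pass the test. The means of Gabra2, Gabra4 and Gabra5 were lowest in Bet+HMD, so its share rose as the rest of the sum fell. Counted in recovered reads, which weight long genes, the share of Gabra5 in Bet+HMD differed from that in Con by -3.94 percentage points, beside -6.79 from FPKM, and that of Gabra2 by -11.4 points beside -7.10. In HMD against Con the difference for Gabra2 was -10.7 points in reads beside -6.87 from FPKM. In Bet+HMD against HMD it was -0.675 points for Gabra2 and -0.557 for Gabra4 in reads.

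Groups did not overlap in the shares of 2 of the 4 alpha subunits in Bet+HMD against HMD (Gabra3 and Gabra5), of all 4 against Con, and of 2 (Gabra2 and Gabra4) in HMD against Con. An exact permutation test (two-sided, over samples) gave P = 0.1 for each of these, which is the smallest it can give with 3 samples against 3. The 4 shares of a sample are parts of one sum, so they are not separate results. In FPKM, groups did not overlap for 60.1%, 55.1% and 9.37% of all genes in the same order of comparisons. In Bet+HMD against HMD the exact P was 0.8 for both Gabra2 and Gabra4, whose differences were -0.195 and -0.164 percentage points and changed sign when single samples were left out (Bet+HMD replicate 1 for both, and HMD replicate 1 for Gabra4).

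**Figure D3:**
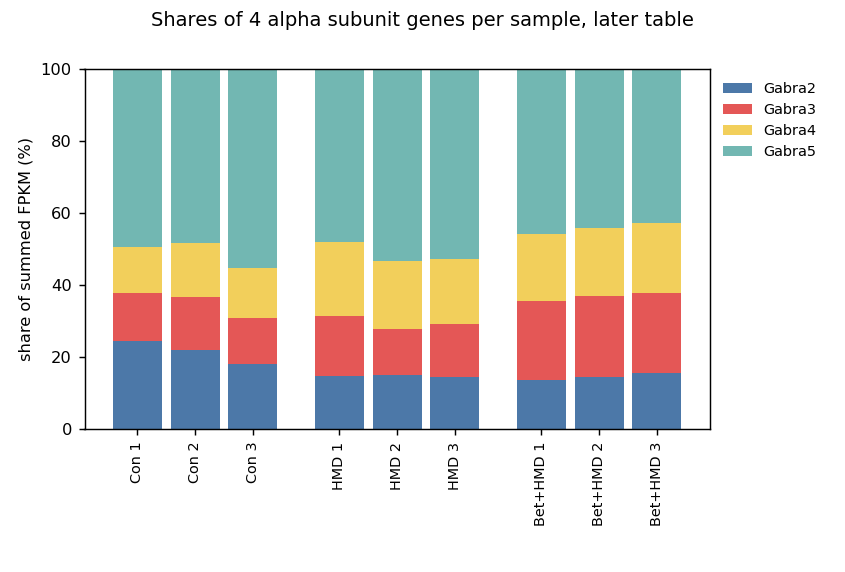
Share (%) of each of the 4 alpha subunit genes in their summed FPKM, one stacked bar per sample of the later table. The Gabra5 segment is 42.8 to 45.8% in the Bet+HMD bars and 48.2 to 55.5% in the others, and the Gabra2 segment is widest in the Con bars.

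Of 9 other subunit genes, 3 passed the filter on low values in Bet+HMD against HMD, and 1 of these was lower and 0 higher, where 25.5% of all genes were lower and 22.8% higher. Gabrg1, a gamma subunit gene, had a log2 fold change of -0.49 (adjusted P = 0.00247), with 4.13, 4.37 and 4.35 FPKM in Bet+HMD and 6.64, 5.86 and 6.76 FPKM in HMD. The values of Gabrg3 (0.11, adjusted P = 0.464) and Gabrr2 (-0.49, adjusted P = 0.0565) did not pass.

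Compared with Con, 1 of 2 other subunits tested was lower, which was Gabrg1 (-0.33, adjusted P = 0.0366), while Gabrg3 (0.24, adjusted P = 0.0804) did not pass. The call of Gabrg1 was lost without Con replicate 1 or any one of the Bet+HMD samples, which left 0 called. It was also lost with the replicate number as a block and with no filter on low values, again with 0 called. Of all genes tested against Con, 20.4% were lower, and calls over all genes in either direction were 5422 as reported. They were 4654 without Con replicate 1, 3302 to 3424 without a Bet+HMD sample and 3924 with the block. In HMD against Con, 0 of 3 passed with limma, and 1 had an unadjusted P under 0.05. Gabrr2, a rho subunit gene best known from the retina, measured 0.483, 0.852 and 0.620 FPKM in Con and 2.10, 1.09 and 1.90 FPKM in HMD, without overlap (log2 fold change 0.69, unadjusted P = 0.00727, adjusted P = 0.906). Gabra6, Gabre, Gabrp, Gabrq, Gabrr1 and Gabrr3 were under the filter in all comparisons, as was Gabrr2 in Bet+HMD against Con. Gabra6, a gene of cerebellar granule cells, reached at most 0.452 FPKM in the later table.

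Neighbouring genes did not share one value. On chromosome 5, Gabrg1 (-0.49), Gabra2 (-0.55) and Gabra4 (-0.55) were lower in Bet+HMD than in HMD, while Gabrb1, which starts head to head with Gabra4, stood at 0.005. On chromosome 7, Gabra5 stood at -0.77 and Gabrg3, which did not pass the test, at 0.11.

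**Figure D4:**
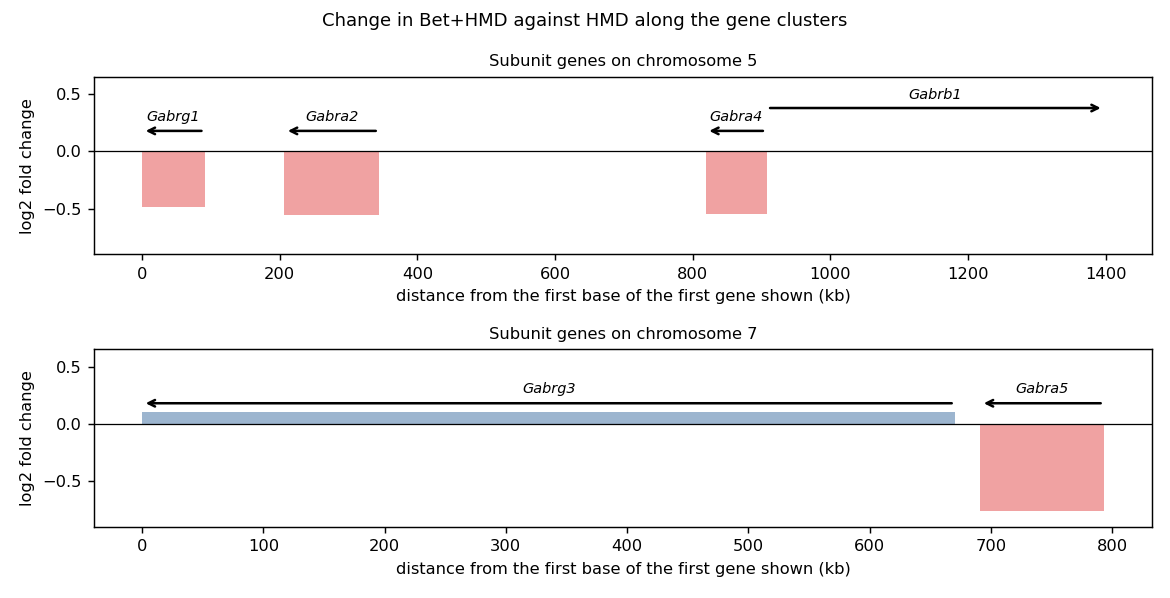
Subunit genes on chromosomes 5 and 7, drawn to scale as distance from the first base of the first gene shown (kb), with arrows in the direction of transcription; the height of each block is the log2 fold change of Bet+HMD against HMD. The block of Gabra5 reaches -0.77 while that of Gabrg3 reaches 0.11, and Gabrb1 has almost no height beside Gabra4.

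A list of 44 genes that serve these receptors was read from the same fits, and 43 were found and tested. In Bet+HMD against HMD 16 were lower and 4 higher, with a median log2 fold change of -0.19 beside -0.03 for all genes. That is 46.5% called, near the 48.3% of all genes tested, of which 25.5% were lower and 22.8% higher. The 4 higher were Shisa7 (0.88, adjusted P = 0.000336), which encodes an auxiliary protein of GABA-A receptors, Wnk1 (0.38), a kinase that acts on chloride transport, Kif5a (0.35), a motor of vesicle transport, and Dmd (0.25), which encodes dystrophin. The largest falls were those of Slc32a1 (-0.97, adjusted P = 0.00071), the vesicular GABA transporter, Insyn1 (-0.87, adjusted P = 0.000314), a protein of inhibitory synapses, Kctd12 (-0.74), a subunit of GABA-B receptors, and Tmem35a (-0.62), a chaperone of receptor assembly.

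By role, 4 of 6 genes of GABA synthesis and transport were lower and 0 higher in Bet+HMD against HMD. Of the other roles, 5 of 13 genes of trafficking and turnover were lower and 1 higher, 2 of 11 of scaffold and adhesion were lower and 1 higher, and 2 of 4 of auxiliary and assembly genes were lower and 1 higher. Of the 4 genes of the chloride gradient 2 were lower and 1 higher, and of the 5 of the GABA-B receptor 1 was lower and 0 higher. Of all genes tested in this comparison 48.3% passed, 25.5% lower and 22.8% higher, and no role was tested against the rest.

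Compared with Con, 6 of the 43 genes were lower and 2 higher, with a median of -0.09. The 18.6% called lay below the 39.7% of all genes tested, of which 20.4% were lower and 19.4% higher. The higher ones were Shisa7 (0.95, adjusted P = 0.00121) and Wnk1 (0.38), and the largest falls were those of Insyn1 (-0.92, adjusted P = 0.00065), Tmem35a (-0.69), Slc32a1 (-0.65) and Gabarap (-0.48), which encodes a protein that binds gamma subunits. In HMD against Con 0 of 43 passed with limma and 1 had an unadjusted P under 0.05. The 2 with the smallest P were Plcl1 (0.48, unadjusted P = 0.0119), a partner of GABA-A receptors in their turnover, and Gad2 (0.38, unadjusted P = 0.0508), which makes GABA.

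Markers of neurons and of other cells were read beside the subunits, in a comparison against HMD where 25.5% of all genes were lower and 22.8% higher. The summed FPKM of 8 neuron markers was 909 to 919 in Bet+HMD, 1005 to 1138 in HMD and 983 to 1091 in Con, and 4 of the 8 were lower and 2 higher against HMD. The sum of 8 interneuron markers was 169 to 211 in Bet+HMD, 203 to 298 in HMD and 236 to 258 in Con, with 1 of 8 lower and 0 higher against HMD. The sum of 10 dentate gyrus markers was 87.5 to 89.8 in Bet+HMD, 88.9 to 101.2 in HMD and 82.7 to 99.0 in Con, with 2 higher and 2 lower against HMD. Markers of other cells differed too. Of 8 oligodendrocyte markers 5 were lower and 0 higher against HMD (median log2 fold change -0.47), with sums of 861 to 867 FPKM in Bet+HMD, 942 to 1241 in HMD and 819 to 1355 in Con. Of 6 microglia markers 3 were lower and 0 higher (median -0.21), with sums of 72.9 to 73.8, 88.0 to 99.0 and 92.95 to 107 FPKM in the same order. Of 5 blood markers 2 were lower and 0 higher (median -0.78), with sums of 72.2 to 122, 149 to 233 and 99.8 to 148 FPKM. Of 8 astrocyte markers and of 6 endothelium markers 2 each were lower and 0 higher. The sum of 5 choroid plexus markers was 934 to 1207 FPKM in Bet+HMD, 866 to 2570 in HMD and 770 to 3204 in Con. No marker of these lists was at 0 in all samples of a group, and their part in the subunit differences was not tested.

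In Bet+HMD against HMD, the calls of Gabra5, Gabra2 and Gabra4 did not depend on the scaling of the libraries, though the size of the differences did. With TPM, Gabra5 stood at -0.58, Gabra2 at -0.38 and Gabra4 at -0.37 in Bet+HMD against HMD, which is -0.73, -0.54 and -0.53 from the median of all genes in that setting. With neuron centring the values were -0.54, -0.33 and -0.33, all still past the threshold. With quantile normalization Gabra5 stood at -0.43. The points of the plot of alternatives show the same for each of the 18 alternatives.

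**Figure D5:**
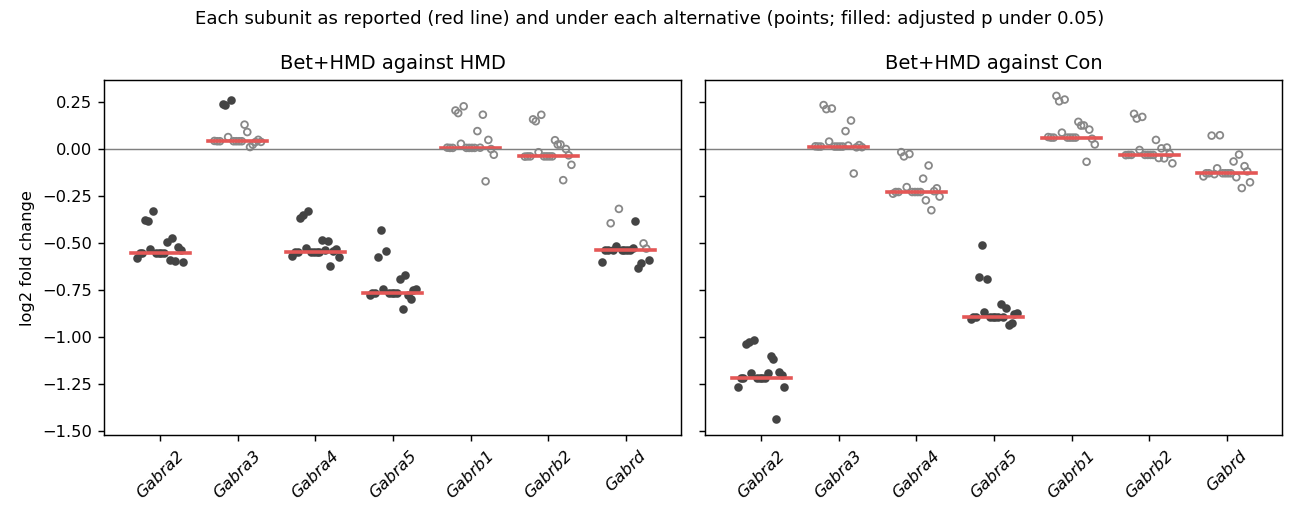
Log2 fold change of each subunit as reported (red line) and under each of the 18 alternatives (points, filled where the adjusted P is under 0.05), for Bet+HMD against HMD (left) and against Con (right). Gabra2 and Gabra5 are filled throughout in both panels and Gabra4 in the left one, the points of Gabrb1 and Gabrb2 lie on either side of 0 in both panels, and those of Gabra3 and Gabrd do so in the right one.

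Over the 6 Con and HMD samples of the earlier table, the 5 genes outside the lists whose log2(FPKM + 1) was most like the mean of the 7 subunits were Itga6 (Pearson's r = 0.997), Stox2 (0.990), Tmem38b (0.990), Rgs4 (0.989) and Rwdd4a (0.989). These are descriptions over 6 points that share their libraries and depth, and 3.2% of the 12989 genes had an r of at least 0.9. The subunits themselves ran from 0.395 for Gabrd to 0.846 for Gabrb1 against that mean, so no single subunit followed it as closely.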

How the data were processed

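Total RNA of the hippocampus was sequenced in 9 samples, 3 each of Con, HMD and Bet+HMD, grouped by their titles. The authors, according to the methods, removed ribosomal RNA, built stranded paired-end libraries, aligned reads with HISAT2 and counted them with featureCounts. The submitters' processing notes name HISAT2 2.1.0, featureCounts 1.5.0-p3 and mm10, and the methods name other versions of both tools. It is not stated whether strand entered the counting, so Gabra4 and Gabrb1, and Gabra5 and Gm9962, are uncertain where they overlap. The authors deposited FPKM in 2 tables, together with the gene length in bases (another unit, used unchanged) and gene positions. The start, end and exon length of all subunit genes reported were the same in GENCODE M21 on GRCm38. The columns named COL were read as Con by inference, and 0 sample columns were left unmapped.

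The library size of each sample was inferred from its FPKM, as the value that best turned FPKM multiplied by length into whole reads. With it, 100% of values were whole reads (within 0.1 read), so depth could be recovered. Depth limits counting error only, since reads are not independent molecules. The 6 samples in both tables had 0.312% to 5.49% fewer reads in the later one, so tests stayed within a table. Genes averaging 1 FPKM or more in the samples compared were tested with limma 3.58.1 (R 4.3.3; empirical Bayes with intensity trend) on log2(FPKM + 1), a scale that understates changes of low genes. This replaced the count-based tools of the study because the files hold FPKM. P values are two-sided, adjusted by Benjamini-Hochberg over all genes, with a threshold of 0.05. They measure the spread between samples, and separate animals are not stated for each. Shares within the sum of the 4 alpha subunit genes were compared by an exact permutation test (scipy 1.17.1, Python 3.11.15). The code was tested on simulated data.

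The 7 subunits, the gene lists and the motifs were chosen with earlier results of these data known. Some subunit genes are not reported here, and after the fits they were left out of the list of other subunits and of the sums behind the shares. Named genes are the 7 subunits, the other subunits past the filter, up to 4 associated genes per direction with the largest change past the threshold (or the 2 with the smallest P), and the 5 genes most like the mean of the subunits. Of the associated genes Insyn2a was not found under that name. Alternatives were a pseudocount of 0.1, no filter or one at 5 FPKM, TPM, quantile, median and neuron marker scaling, no trend, 1 fit of all 3 groups, only protein-coding genes, the replicate number as a block, voom on the reads recovered, HMD against Con taken from the later table, and omission of each sample.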

Additional observations from a re-analysis of the deposited data

How the results depend on the processing

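Gabra2 and Gabra5 in both comparisons of Bet+HMD, and Gabra4 against HMD, were lower and past the threshold under all 18 alternatives, with adjusted P of at most 0.0279 for Gabra2, 0.00893 for Gabra5 and 0.0152 for Gabra4. With neuron centring Gabra2 and Gabra4 against HMD shrank to -0.33 each, and with quantile normalization Gabra5 shrank to -0.43 against HMD and -0.51 against Con. The cause was not tested. The number of subunits called lower was 3 or 4 against HMD and 2 against Con under every alternative. Gabra3 was also called higher against HMD with TPM, quantile normalization and neuron centring. In HMD against Con 0 were called in either direction under every alternative. The share of genes higher among those called against HMD was 47.2% as reported, 69.5% with TPM and 75.2% with neuron centring, and against Con it was 48.8%, 73.5% and 75.2%. It was 57.3% with voom and 32.8% with the filter at 5 FPKM against HMD.

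Values near 0 changed sign. Gabrb2 against HMD was 0.16 with TPM, 0.15 with quantile normalization, 0.18 with neuron centring and 0.046 with voom, and against Con 0.19, 0.16, 0.17 and 0.047. In HMD against Con it was -0.023 with neuron centring and -0.0089 with voom. Gabrd against Con was 0.070 with TPM and 0.072 with neuron centring. Leaving out one sample each, Gabrb2 ran from -0.17 to 0.023 against HMD, -0.077 to 0.0068 against Con and -0.064 to 0.12 in HMD against Con. Gabrb1 ran from -0.17 to 0.18, -0.069 to 0.12 and -0.12 to 0.23 in the same order. Gabra3 ran from -0.13 to 0.15 against Con and -0.18 to 0.11 in HMD against Con.

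Of the other subunits, 2 passed against HMD with no filter, quantile normalization, neuron centring, no trend or protein-coding genes alone, and 1 to 2 without single samples. Against Con 0 passed with no filter or the block, 2 with voom, and 0 to 1 without single samples. With the filter at 5 FPKM no other subunit was tested against Con, so the 0 called in that setting says nothing about Gabrg1. Of the associated genes, 13 passed against Con with quantile normalization, 5 with the block and 5 to 13 without single samples, and 12 to 22 against HMD without single samples (12 without Bet+HMD replicate 2 or 3, 13 without replicate 1). Calls over all genes moved too. Against Con they were 5422 as reported, 5296 with quantile normalization, 3924 with the block and 3302 to 6269 without single samples. Against HMD they were 6607 as reported, 4782 to 4858 without a Bet+HMD sample and 5855 to 6990 without an HMD sample.

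Without single samples the difference in share ran from -0.684 to 0.264 percentage points for Gabra2 and -0.740 to 0.516 for Gabra4 in Bet+HMD against HMD, and from -0.988 to 2.58 for Gabra5 in HMD against Con.

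Same-numbered samples did not deviate together in all pairs. Their correlations were -0.151 to 0.0171 in Bet+HMD and HMD, -0.176 to -0.0489 in Bet+HMD and Con, and -0.0555 to 0.346 in HMD and Con, and 1, 0 and 4 of 6 samples correlated best with their own number. With the replicate number as a block, 4, 2 and 0 of the 7 subunits were called, as without it.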
